A study of Arabidopsis thaliana with 6 samples.

Results

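The genes described here are 9 flowering-time genes of *Arabidopsis thaliana*, chosen by their locus identifiers among the 64621 identified features of the files. They are the 6 genes of the *FLOWERING LOCUS C* clade (*FLC* AT5G10140, *FLM* AT1G77080, *MAF2* AT5G65050, *MAF3* AT5G65060, *MAF4* AT5G65070 and *MAF5* AT5G65080), *SVP* (AT2G22540), and the floral integrators *SOC1* (AT2G45660) and *FT* (AT1G65480). Polyadenylated RNA of 14-day-old whole seedlings was sequenced from 3 genotypes with 2 libraries each, 6 libraries in all. WT was the accession Col-0. The *nerd-1* plants carried a T-DNA insertion in *NERD* in the Col-0 background. The *nerd-1*+T plants were *nerd-1* plants expressing a flag-tagged NERD, in 1 complemented line, with a promoter that is not given in the sources used here. NERD is a GW-repeat protein known from RNA silencing, and the study asked about its part in mRNA 3′-end formation. Whether the replicates came from separately grown plants is not stated, so that the *p*-values below measure only the spread between these libraries, which may be technical. The hour of harvest is not given in the sources used here, although *FT*, *CO* and several of their regulators cycle over the day.

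In Arabidopsis, FLC is a MADS-box transcription factor that holds back flowering by repressing *SOC1* and *FT*. The autonomous pathway keeps *FLC* low, the FRIGIDA and Paf1 complexes raise it, and prolonged cold silences it through Polycomb proteins. Col-0 carries a nonfunctional *FRI* allele, so that *FLC* is low in this accession without a cold treatment. SVP is a MADS-box repressor that acts together with FLC and FLM, and FT is the mobile florigen that leaves the leaf vasculature and acts with the bZIP factor FD at the shoot apex. SOC1 is a MADS-box activator that integrates these inputs.

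The clade members resemble each other in sequence, and *MAF2* to *MAF5* lie head to tail on chromosome 5. In TAIR10.1, *MAF2* spans chr5:25982254-25986435, *MAF3* chr5:25987309-25991412, *MAF4* chr5:25992193-25996202 and *MAF5* chr5:25997504-26002619, all on the plus strand. The gaps between them measured 873, 780 and 1301 bp. *FLC* lies on the minus strand at chr5:3173382-3179448 and *FLM* on the plus strand at chr1:28955483-28960234. *SVP* (chr2:9579647-9583901, plus strand), *SOC1* (chr2:18807505-18811125, minus strand) and *FT* (chr1:24331373-24333999, plus strand) lie apart from them. The opening of the MADS-domain coding sequence is shown for the 8 MADS-box members because it makes the grouping visible. Each line holds 30 coding bases read from the TAIR10.1 genome, 5′ to 3′ on the gene's strand, and capitals mark bases that differ from *FLC*.
FLC: atgggaagaaaaaaactagaaatcaagcga
FLM: atgggaagaaGaaaaAtCgaGatcaagcga
MAF2: atgggTagaaaaaaaGtCgaGatcaagcga
MAF3: atgggaagaaGaaaaGtCgaGatcaagcga
MAF4: atgggaagaaGaaaaGtagaGatcaaAcga
MAF5: atgggaagaaGaaGaGtagaGatcaaAcga
SVP: atggCGagaGaaaaGAtTCaGatcaGgAAG
SOC1: atggTGagGGGCaaaACTCaGatGaagAga
The 5 relatives of *FLC* differed from it at 4 or 5 of these bases, *SVP* at 12 and *SOC1* at 13. The stretch starts at the first coding base, except in *MAF5*, whose longest annotated coding sequence reaches further upstream and whose stretch starts at coding base 22. In *FLC* it lies at chr5:3179310-3179339 and in *SOC1* at chr2:18810164-18810193.

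Over the aligned bases of the coding sequences, with gaps not counted, *FLC* was 72.3% to 77.7% identical to its clade members, 65.5% to *SVP* and 62.4% to *SOC1*. *MAF2* and *MAF3* were the most alike pair of the clade, at 93.6%, followed by *FLM* and *MAF3* at 89.7%. This likeness matters for the measurement, since reads that fit several genes are shared out by the quantification. The reads were 125 bases long, and no stretch of 125 bases of any member's annotated transcripts occurred in the annotated transcripts of another gene, the antisense locus of *FLC* described below not counted. Among stretches of 25 bases, 15.4% of those of *MAF3* and 6.49% of those of *MAF2* also occurred in another gene, against 0.526% to 2.17% for *FLM*, *MAF4*, *MAF5* and *FT*, and 0 for *FLC*, *SVP* and *SOC1*. Levels below are FPKM, which are read numbers scaled to transcript length and library size, as the authors deposited them.

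FLC, SVP and their relatives bind CArG boxes, which are AT-rich motifs between CC and GG. A box was searched on both strands from 500 bases before to 100 bases after the annotated start of each member. None of the 9 windows held one, against 5.11% of the windows of 27443 genes. The first intron of *FT* (815 bases) held 1 box, at chr1:24331801-24331810 on the plus strand. It is shown in capitals within the stretch chr1:24331791-24331820.
FT first intron: aaattattttCCTTTTTTGGggtatactga
The box started 428 bases from the annotated start of *FT*. Of 696 genes whose first intron was searched over the same length, 6.75% held such a box. A match of letters describes the sequence and does not show that a factor binds there.

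The libraries differed in ways that touch every value below. *NERD* itself measured 14.1 and 13.9 FPKM in WT, 7.59 and 7.45 in *nerd-1*, against 63.7 and 63.5 in *nerd-1*+T, so that its order followed the labels, with RNA still present in *nerd-1* and more than the WT level in the complemented line. The metallothionein gene *MT1A* took 12.9% to 13.5% of the summed FPKM in *nerd-1*, 1.59% to 1.71% in WT, compared with 1.10% to 3.57% in *nerd-1*+T. The median log2 change of the 20249 tested features was -0.11 in *nerd-1* against WT, -0.17 in *nerd-1*+T against WT and 0.06 in *nerd-1* against *nerd-1*+T, and changes relative to these medians are given for the main members. In *nerd-1* against WT, 3924 features were higher and 7351 lower, but 5481 and 5158 after scaling by the median ratio, and 2653 and 10305 after scaling to the FPKM sum. In *nerd-1*+T against WT the split was 2675 and 8069, and 4309 and 3757 with median-ratio scaling. Between *nerd-1* and *nerd-1*+T it was 4850 and 2834, and 3448 and 3886 with median-ratio scaling or 2388 and 5662 with scaling to the FPKM sum. Among organ markers, all 4 root markers were present, with a summed level of 2175 to 2196 FPKM in WT, 1472 to 1493 in *nerd-1* compared with 1423 to 1592 in *nerd-1*+T. This sum is nearly all *PYK10* (mean 2152 FPKM in WT and 1451 in *nerd-1*), and the other root markers went different ways in *nerd-1*, with log2 changes of 0.53 for *EXPA7* (limma adjusted p = 0.0464, lost without any one of the WT or *nerd-1* libraries), -0.06 for *SCR* (limma adjusted p = 0.455) and -0.31 for *SHR* (limma adjusted p = 0.00699, lost without *nerd-1* replicate 2). The 4 green tissue markers summed to 28313 to 28830 FPKM in WT, 19257 to 19684 in *nerd-1* compared with 17279 to 30372 in *nerd-1*+T, where *CAB1* was listed at 0 in both *nerd-1* libraries and in *nerd-1*+T replicate 2. The lower sums follow these zeros, since in *nerd-1* *CAB3* rose by 1.56 on the log2 scale (limma adjusted p = 0.000663), *RCA* changed by 0.43 (limma adjusted p = 0.0185, lost without any one of the WT or *nerd-1* libraries) and *RBCS1A* by -0.18 (limma adjusted p = 0.275). Of 6 flower organ markers, 1 (*SEP3*) reached 1 FPKM, their sum stayed between 2.82 and 3.66 FPKM, and *SEP2* was listed at 0 in both *nerd-1* libraries. None of 3 seed storage markers reached 1 FPKM. The part of organ proportions in the results below was not tested, and in whole seedlings fewer expressing cells and less RNA per cell cannot be told apart.

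In *nerd-1* against WT, *FLC* rose, while *SVP*, *MAF4* and the integrators *SOC1* and *FT* fell. Of the 9 members, 1 was higher, 4 were lower and 4 did not pass the test (limma on log2(FPKM + 1), Benjamini-Hochberg adjusted over 20249 features, threshold 0.05). Of all tested features, 55.7% passed in this comparison, 19.4% higher and 36.3% lower, so that a share of 5 in 9 lies near the background. *FT* entered the test only through its WT libraries, and without it 1 member was higher and 3 were lower of 8. The libraries of *nerd-1* and WT did not overlap in any of the 9 members, with 3 members above and 6 below WT, which was the case for 85.6% of all features, 32.5% above and 53.2% below. The median log2 change was -0.20 over the members and -0.11 over all features.

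In *nerd-1*+T against WT, *SOC1* rose and 7 members fell, namely *FLC*, *FLM*, *MAF2*, *MAF4*, *MAF5*, *SVP* and *FT*, whereas *MAF3* did not pass. Without *FT*, which entered only through its WT libraries, 1 rose and 6 fell of 8. Of all features, 53.1% passed, 13.2% higher and 39.8% lower. The libraries did not overlap in any member, with 2 above and 7 below, as in 77.1% of all features, 19.8% above and 57.3% below, and the median log2 change was -0.50 over the members against -0.17 over all. Leaving out WT replicate 1 reduced the members past the threshold from 8 to 5, the calls of *MAF2*, *MAF5* and *SOC1* being lost.

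Between *nerd-1* and *nerd-1*+T, *FLC* and *FLM* were higher in *nerd-1*, *SOC1* was lower, and 6 members did not pass. Of all features, 37.9% passed, 24% higher and 14% lower. The libraries did not overlap in 7 of the 9 members, 5 above and 2 below, compared with 73.6% of all features, 44.4% above and 29.2% below. Without *nerd-1*+T replicate 2, 5 members passed, with *MAF2* and *SVP* added. The first and the second comparison share the WT libraries, and the third shares its libraries with both.

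**Figure D1:**
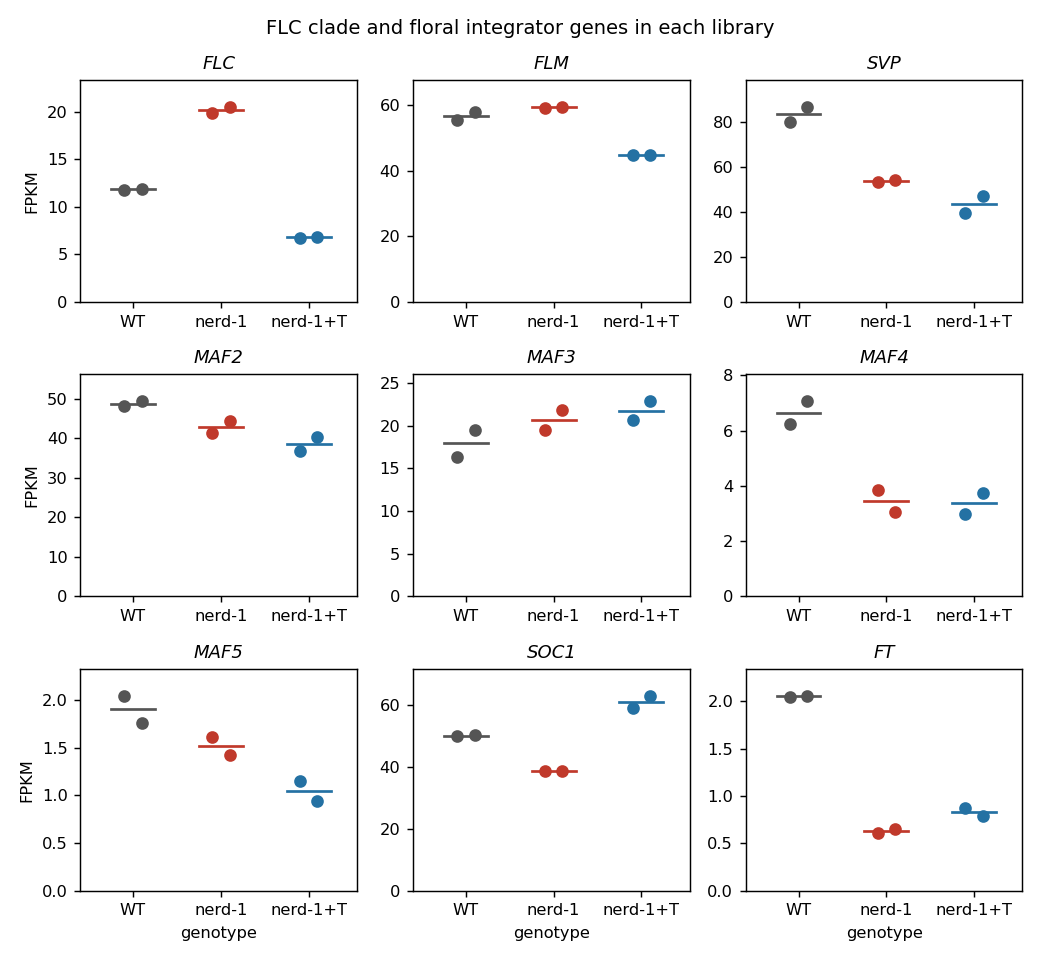
FPKM of the 9 members in the 6 libraries, 1 panel per gene, with each panel on its own axis from 0; points are libraries grouped by genotype and horizontal lines mark the mean of 2. *FLC* is highest in *nerd-1* (19.9 and 20.5) and lowest in *nerd-1*+T (6.68 and 6.86), and *SOC1* has the opposite order (38.8 and 38.5 in *nerd-1*, up to 62.8 in *nerd-1*+T).

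*FLC*, the repressor that gives the clade its name, measured 11.8 and 11.9 FPKM in WT, 19.9 and 20.5 in *nerd-1*, against 6.68 and 6.86 in *nerd-1*+T. The 3 genotypes did not overlap, with *nerd-1* above and *nerd-1*+T below WT. The mean was 11.8 ± 0.0390 FPKM in WT, 20.2 ± 0.427 in *nerd-1* compared with 6.77 ± 0.128 in *nerd-1*+T (SD, n = 2). The level in *nerd-1* was 1.71 times that of WT, a log2 change of 0.72 (SE 0.05, 95% interval 0.60 to 0.85, limma adjusted p = 0.000541). In *nerd-1*+T the change against WT was of the same size in the other direction, -0.72 (interval -0.84 to -0.60, limma adjusted p = 0.000372). *FLC* was 2.98 times as high in *nerd-1* as in *nerd-1*+T, a log2 difference of 1.45 (interval 1.32 to 1.57, limma adjusted p = 0.00026). Relative to the median feature the 3 changes were 0.83, -0.55 and 1.39. These calls held in each of the 14 alternative settings.

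The annotation places the long non-coding gene AT5G01675 on the opposite strand of *FLC*, the strand of the antisense transcripts known as COOLAIR. It has no entry among the features used here, and 804 of the 1180 exonic bases of *FLC* (68.1%) are also exonic in it. The library kit keeps strand, but whether the quantification used it is not stated, so that sense and antisense RNA cannot be told apart in these values.

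*FLM*, also known as *MAF1*, a partner of SVP in the temperature-dependent repression of flowering, measured 55.3 and 57.7 FPKM in WT, 59.1 and 59.3 in *nerd-1*, against 44.8 in both *nerd-1*+T libraries. The genotypes did not overlap, and *nerd-1*+T lay below both others. Its log2 change was 0.07 in *nerd-1* against WT (interval -0.04 to 0.18, limma adjusted p = 0.237), which turned to -0.08 when libraries were scaled to the FPKM sum and passed at 0.19 with median-ratio scaling (limma adjusted p = 0.0179). In *nerd-1*+T against WT it fell by 0.33 on the log2 scale (SE 0.04, limma adjusted p = 0.003), a call lost with median-ratio scaling (-0.14, limma adjusted p = 0.0544). The difference between *nerd-1* and *nerd-1*+T was 0.40 (SE 0.04, limma adjusted p = 0.00344).

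*MAF2*, which in Arabidopsis prevents flowering after short cold spells, measured 48.1 and 49.3 FPKM in WT, 41.2 and 44.3 in *nerd-1*, against 36.8 and 40.4 in *nerd-1*+T. WT was the highest of the 3 genotypes. Its log2 change of -0.18 in *nerd-1* did not pass (interval -0.35 to -0.02, limma adjusted p = 0.0609), and it passed without *nerd-1*+T replicate 1 or replicate 2 (limma adjusted p = 0.0171 and 0.017). It passed with scaling to the FPKM sum (-0.33, limma adjusted p = 0.00828), and was -0.063 with median-ratio scaling (limma adjusted p = 0.425). In *nerd-1*+T it fell by 0.33 (limma adjusted p = 0.0108), and this call was lost without WT replicate 1 or WT replicate 2 (limma adjusted p = 0.056 and 0.071) and with median-ratio scaling (-0.14, limma adjusted p = 0.134).

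*MAF3*, the member next to it and the most similar in sequence, did not follow *MAF2*. It measured 16.4 and 19.5 FPKM in WT, 19.5 and 21.8 in *nerd-1*, against 20.7 and 22.9 in *nerd-1*+T. Both other genotypes lay above WT by a small margin. The log2 changes were 0.20 in *nerd-1* (interval -0.06 to 0.46, limma adjusted p = 0.157) and 0.27 in *nerd-1*+T (interval 0.01 to 0.53, limma adjusted p = 0.0769), and neither passed. With median-ratio scaling both passed, at 0.31 (limma adjusted p = 0.0464) and 0.45 (limma adjusted p = 0.0187), whereas with scaling to the FPKM sum the change in *nerd-1* was 0.055 (limma adjusted p = 0.662). Without WT replicate 1 the changes were 0.080 and 0.15 (limma adjusted p = 0.576 and 0.319).

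*MAF4*, the next gene along the chromosome and likewise a repressor of flowering, had a different pattern again. It measured 6.23 and 7.05 FPKM in WT, 3.84 and 3.07 in *nerd-1*, against 2.99 and 3.73 in *nerd-1*+T. WT stood alone, and the 2 other genotypes overlapped. The fall was 0.78 on the log2 scale in *nerd-1* (SE 0.13, limma adjusted p = 0.00589) and 0.81 in *nerd-1*+T (SE 0.13, limma adjusted p = 0.0052). Relative to the median feature these changes were -0.67 and -0.64. The difference of *nerd-1* from *nerd-1*+T was 0.03 (interval -0.30 to 0.36, limma adjusted p = 0.868), which leaves room for a difference of either sign.

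*MAF5*, the last of the row, was the lowest member of the clade in each genotype. Its level was 2.04 and 1.76 FPKM in WT, 1.62 and 1.43 in *nerd-1*, against 1.15 and 0.942 in *nerd-1*+T. The genotypes did not overlap, and *nerd-1* lay between WT and *nerd-1*+T. The log2 change was -0.20 in *nerd-1* (interval -0.46 to 0.06, limma adjusted p = 0.147) and -0.50 in *nerd-1*+T (SE 0.10, limma adjusted p = 0.0116), where the call was lost without WT replicate 1 (limma adjusted p = 0.0647).

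**Figure D2:**
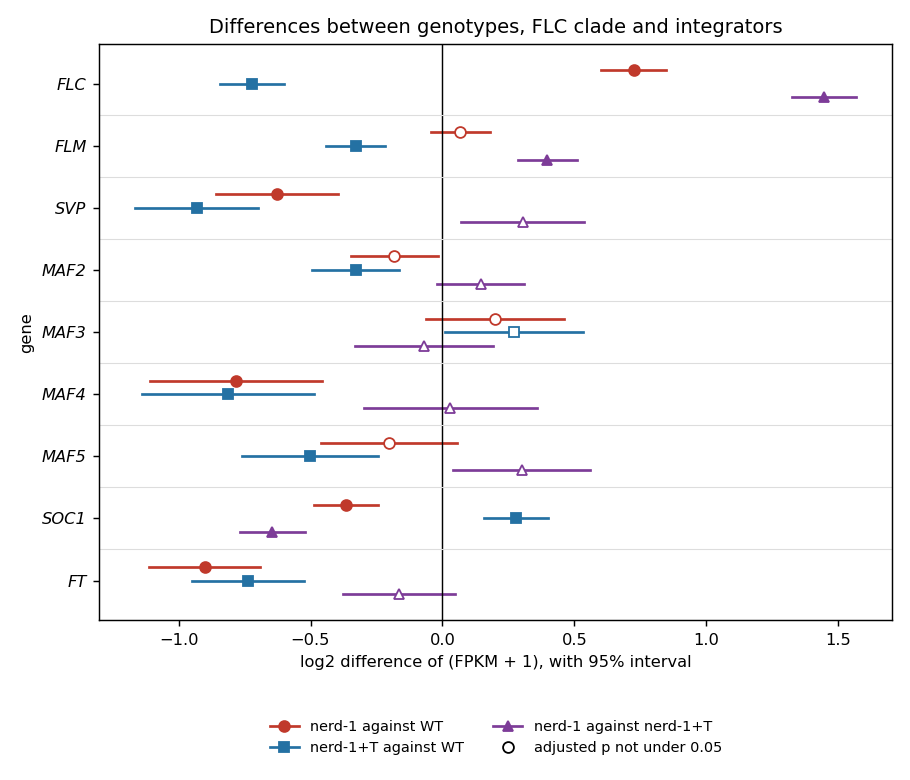
Log2 change of FPKM + 1 of each member in the 3 comparisons, with symbols at the limma estimate, 1 colour and shape per comparison, and lines for the 95% interval (open symbols, adjusted p not under 0.05). *FLC* lies at 0.72, -0.72 and 1.45, and *SOC1* on the opposite side of 0 in each comparison, at -0.37, 0.28 and -0.64.

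Ratios taken within a library do not depend on how libraries are scaled to each other. The summed FPKM of the 6 clade members was 139.8 and 147.1 in WT, 145.2 and 150.5 in *nerd-1*, against 113.1 and 119.5 in *nerd-1*+T. *FLC* made up 8.44% and 8.06% of this sum in WT, 13.7% and 13.6% in *nerd-1*, against 5.91% and 5.74% in *nerd-1*+T. The sum overlapped between WT and *nerd-1* whereas the share of *FLC* did not. The ratio of *MAF3* to its neighbour *MAF4* was 2.63 and 2.76 in WT, 5.09 and 7.11 in *nerd-1*, against 6.92 and 6.12 in *nerd-1*+T. The ratio of *MAF2* to *MAF3* was 2.93 and 2.53 in WT, 2.11 and 2.03 in *nerd-1*, against 1.78 and 1.77 in *nerd-1*+T. With 2 libraries against 2, an exact permutation test of such a ratio has a smallest possible two-sided p of 0.333, so none is given.

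*SVP*, the repressor that pairs with FLC and FLM, was the highest member in WT and fell in both other genotypes. It measured 80.2 and 86.7 FPKM in WT, 53.2 and 54.1 in *nerd-1*, against 39.6 and 47.2 in *nerd-1*+T. The genotypes did not overlap, with WT on top and *nerd-1*+T at the bottom. WT was 1.56 times as high as *nerd-1*, a log2 change of -0.63 (SE 0.09, limma adjusted p = 0.0042), and 1.92 times as high as *nerd-1*+T, a log2 change of -0.93 (SE 0.09, limma adjusted p = 0.0012). Relative to the median feature these changes were -0.52 and -0.76. The difference of 0.30 between *nerd-1* and *nerd-1*+T lay at the threshold (interval 0.07 to 0.54, limma adjusted p = 0.0506). It passed with at least 1 FPKM in every library (limma adjusted p = 0.0413). It did not pass with scaling to the FPKM sum (0.14, limma adjusted p = 0.294) or with median-ratio scaling (0.23, limma adjusted p = 0.0905). Its size was 0.18 without *nerd-1*+T replicate 1 and 0.43 without *nerd-1*+T replicate 2. Without *nerd-1* replicate 1 or *nerd-1* replicate 2 it was 0.32 and 0.29. *FLC* and *SVP*, 2 repressors that act together, therefore differed in direction in *nerd-1* against WT.

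*SOC1*, the integrator repressed by FLC and SVP, measured 50.0 and 50.1 FPKM in WT, 38.8 and 38.5 in *nerd-1*, against 59.0 and 62.8 in *nerd-1*+T. The genotypes did not overlap, and their order was the reverse of that of *FLC*. *SOC1* fell in *nerd-1* by 0.37 on the log2 scale (SE 0.05, limma adjusted p = 0.00313), with WT 1.30 times as high. It rose in *nerd-1*+T by 0.28 (SE 0.05, limma adjusted p = 0.00693), 1.22 times the WT level, and this call was lost without WT replicate 1 or WT replicate 2 (limma adjusted p = 0.0537 and 0.0529). In *nerd-1*+T the level was 1.58 times that of *nerd-1* (log2 difference of *nerd-1* to *nerd-1*+T -0.64, limma adjusted p = 0.00137). Relative to the median feature the 3 changes were -0.26, 0.45 and -0.70.

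*FT*, the florigen gene, was low in whole seedlings, at 2.05 and 2.06 FPKM in WT, 0.614 and 0.656 in *nerd-1*, against 0.879 and 0.788 in *nerd-1*+T. WT stood above both other genotypes, and *nerd-1*+T lay slightly above *nerd-1* without reaching WT. WT was 3.23 times as high as *nerd-1* (log2 change -0.90 on the FPKM + 1 scale, SE 0.08, limma adjusted p = 0.00122) and 2.47 times as high as *nerd-1*+T (-0.74, SE 0.08, limma adjusted p = 0.00177). The added 1 FPKM shrinks these log2 changes, since *FT* is near 1 FPKM. Because *FT* passed the filter on low values only where it was high, its call describes a gene that had to be higher in WT. The difference of *nerd-1* from *nerd-1*+T was -0.16 (interval -0.38 to 0.05, limma adjusted p = 0.172).

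**Figure D3:**
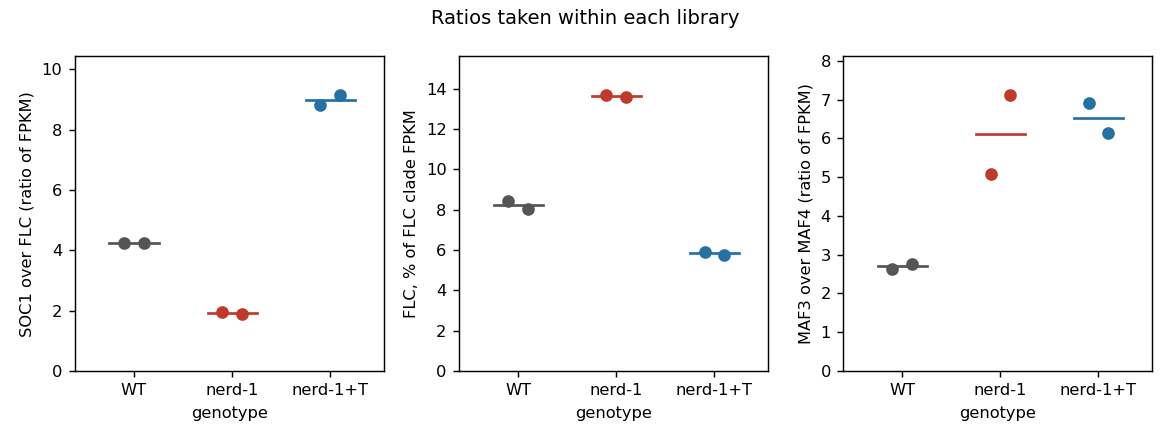
*SOC1* over *FLC*, *FLC* as a percentage of the clade sum, and *MAF3* over *MAF4*, each computed from FPKM within a library, with 2 points per genotype and a line at their mean. The ratio of *SOC1* to *FLC* is 4.23 in both WT libraries, 1.95 and 1.88 in *nerd-1*, against 8.83 and 9.15 in *nerd-1*+T, and the share of *FLC* in the clade sum is highest in *nerd-1*.

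The ratio of *SOC1* to *FLC* within a library was 4.23 in both WT libraries, 1.95 and 1.88 in *nerd-1*, against 8.83 and 9.15 in *nerd-1*+T. The ratio of *SOC1* to *FT* was 24.4 and 24.3 in WT, 63.1 and 58.6 in *nerd-1*, against 67.2 and 79.7 in *nerd-1*+T. Neither ratio overlapped between genotypes. *nerd-1* had the lowest ratio of *SOC1* to *FLC*, and WT the lowest ratio of *SOC1* to *FT*.

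The order of the members by level changed with the genotype. In WT it ran from *SVP* (83.5 FPKM) over *FLM* (56.5), *SOC1* (50.0), *MAF2* (48.7), *MAF3* (17.9), *FLC* (11.8) and *MAF4* (6.64) to *FT* (2.05) and *MAF5* (1.90), the last pair differing by less than the sum of their SDs. In *nerd-1*, *FLM* (59.2 FPKM) came before *SVP* (53.6), and *FLC* (20.2) was level with *MAF3* (20.7) within the spread. In *nerd-1*+T, *SOC1* (60.9 FPKM) was first, and *FLM* (44.8), *SVP* (43.4) and *MAF2* (38.6) followed with differences between neighbours inside their summed SDs. *FT* was last in both of these genotypes.

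The genes beside the members were examined because altered 3′ ends of one gene can reach the next. This reason does not cover genes upstream on the opposite strand, which are transcribed away from the member. They are listed only because they are nearest. Of all features, 55.7% passed in *nerd-1* against WT and 53.1% in *nerd-1*+T against WT. AT5G10150, which lies 2489 bp upstream of *FLC* on the same strand, measured 20.2 and 19.3 FPKM in WT, 34.3 and 32.3 in *nerd-1*, against 29.4 and 30.1 in *nerd-1*+T. It rose in *nerd-1* by 0.72 on the log2 scale (limma adjusted p = 0.0007), and in *nerd-1*+T as well, by 0.57 (limma adjusted p = 0.001), where *FLC* fell. AT5G10130, 680 bp downstream of *FLC* on the same strand, measured 3.43 and 2.60 FPKM in WT, 2.42 and 2.60 in *nerd-1*, against 1.23 and 1.71 in *nerd-1*+T, and its change of -0.19 in *nerd-1* did not pass (limma adjusted p = 0.312). It fell in *nerd-1*+T by 0.70 (limma adjusted p = 0.012), as *FLC* did, a call lost without WT replicate 1 (limma adjusted p = 0.059). It was 0.51 higher in *nerd-1* than in *nerd-1*+T (limma adjusted p = 0.0418), a call lost under both other scalings, and without WT replicate 1, either *nerd-1* library or *nerd-1*+T replicate 1 (limma adjusted p from 0.0503 to 0.179).

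*NET2D*, 1647 bp downstream of *SVP* on the same strand, measured 5.57 and 5.59 FPKM in WT, 2.91 and 2.85 in *nerd-1*, against 3.33 and 3.76 in *nerd-1*+T. It fell in both, by 0.76 (limma adjusted p = 0.0013) and 0.54 (limma adjusted p = 0.003), as *SVP* did. AT5G65040, upstream of *MAF2* on the opposite strand, fell in *nerd-1* by 0.78 (limma adjusted p = 0.0039), and *BST1*, 1262 bp downstream of *MAF5*, did not pass in any comparison. *FAS1*, the chromatin assembly factor gene 7281 bp upstream of *FT* on the opposite strand, fell in *nerd-1* by 0.47 (limma adjusted p = 0.01). This call was lost without WT replicate 1 or either *nerd-1* library. AT1G77090, 77 bp downstream of *FLM* on the opposite strand, rose in *nerd-1* by 0.21 (limma adjusted p = 0.0442). This call was lost with scaling to the FPKM sum and in other settings. AT1G77060, 1902 bp upstream of *FLM* on the opposite strand, rose in *nerd-1*+T by 0.65 (limma adjusted p = 0.0037), where *FLM* fell. AT2G22530, 2030 bp upstream of *SVP* on the opposite strand, fell in *nerd-1*+T by 0.27 (limma adjusted p = 0.0327). This call was lost with median-ratio scaling (-0.11, limma adjusted p = 0.317), with no filter (limma adjusted p = 0.0608) and with only the genotypes compared (limma adjusted p = 0.0724). The change was -0.23 without WT replicate 1 and -0.20 without *nerd-1*+T replicate 2, and these fits lost the call as well. AT2G45670, upstream of *SOC1*, did not pass in any comparison. *AGL6* beside *SOC1* and AT1G65481 beside *FT* stayed under 1 FPKM in all 6 libraries and were not tested.

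A further 72 genes that act on or with the members were examined in 6 lists, of which 63 were tested. In *nerd-1* against WT, 11 rose and 24 fell, shares close to the 19.4% higher and 36.3% lower over all features. In *nerd-1*+T against WT, 6 rose and 31 fell, where 13.2% and 39.8% of all features did. Comparing *nerd-1* with *nerd-1*+T, 18 were higher in *nerd-1* and 10 lower, where 24% and 14% of all features were. The counts of each list below stand beside these shares and are descriptions of short lists. Most of them moved by more than 1.5 times when 1 library was left out, and the main ranges are given. No call in these lists that is named below turned its direction under an alternative setting.

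**Figure D4:**
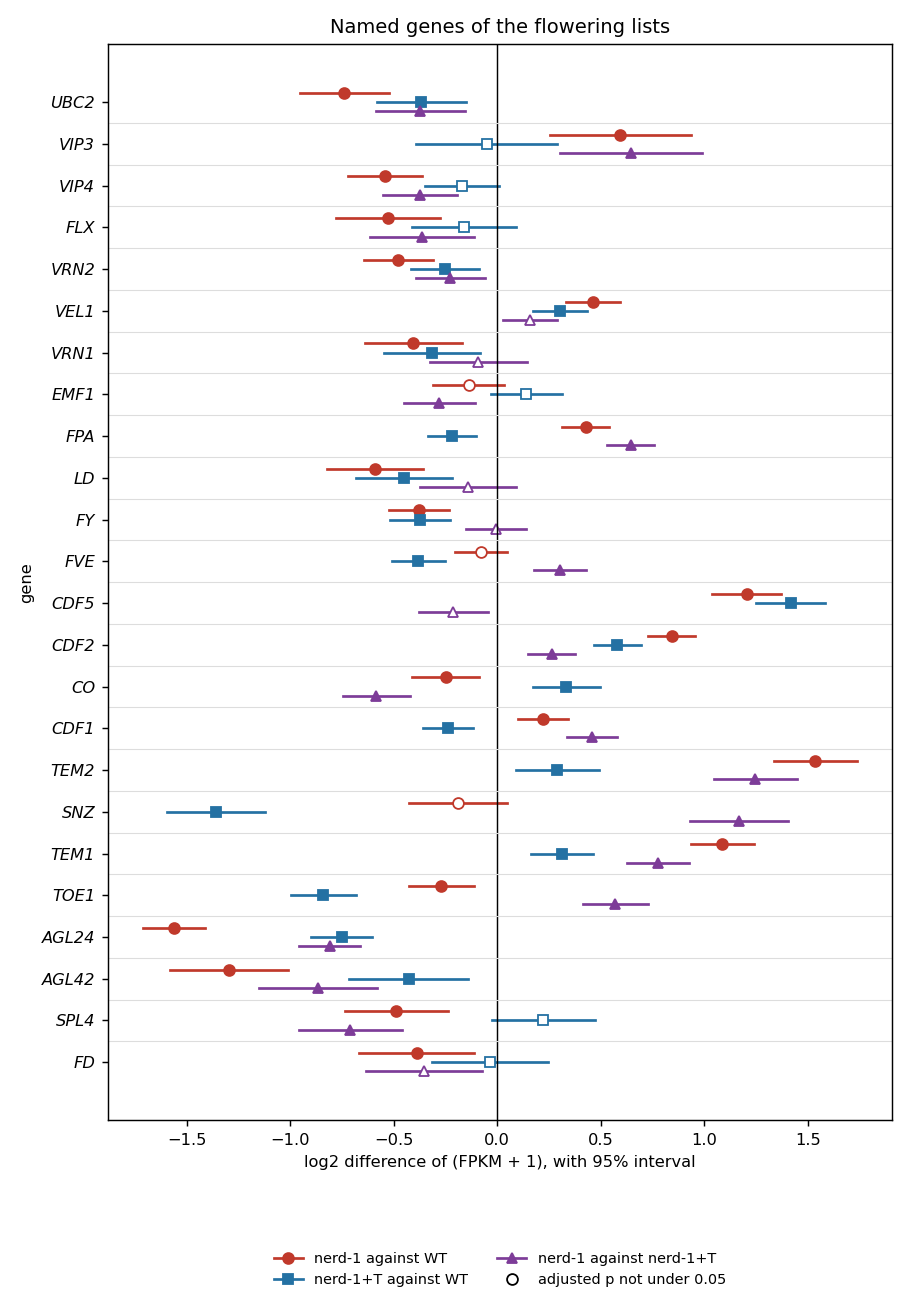
Log2 differences of FPKM + 1 of the named genes of the 6 flowering lists in the 3 comparisons, with symbols at the limma estimate, 1 colour and shape per comparison, and lines for the 95% interval (open symbols, adjusted p not under 0.05). *TEM2* (1.54) and *CDF5* (1.20) lie highest and *AGL24* (-1.56) and *AGL42* (-1.29) lowest in *nerd-1* against WT.

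Among the 21 activators of *FLC*, 1 rose and 7 fell in *nerd-1* (median log2 change -0.15), which is no larger a share of falls than the 36.3% over all features. The 8 calls became 18 with scaling to the FPKM sum, and ranged from 2 to 12 with 1 library left out (2 to 4 without a WT or a *nerd-1* library). In *nerd-1*+T, 0 rose and 9 fell (median -0.17, against 39.8% lower over all features), with 4 calls under median-ratio scaling and 3 to 15 with 1 library left out. *UBC2*, an E2 enzyme of histone H2B ubiquitination, measured 164 and 168 FPKM in WT, 100 and 97.8 in *nerd-1*, against 118 and 140 in *nerd-1*+T. It was the lowest in *nerd-1*, where it fell by 0.74 (limma adjusted p = 0.0022). *VIP4* and *VIP3* encode subunits of, or proteins associated with, the Paf1 complex. Of the 5 such genes in the list, 4 fell in *nerd-1*, where 36.3% of all features were lower. This group was set apart after its values were seen. *VIP4* fell by 0.54 (limma adjusted p = 0.003), and *VIP3* rose by 0.59 (limma adjusted p = 0.015), the latter call being lost when any WT or *nerd-1* library was left out (limma adjusted p from 0.0575 to 0.089). The others, named after their values were seen, were *VIP5* (-0.44, limma adjusted p = 0.0108), *VIP6* (-0.30, limma adjusted p = 0.0108) and *ELF7* (-0.16, limma adjusted p = 0.0275). *ELF7* changed by -0.05 relative to the median feature, and by -0.044 with median-ratio scaling (limma adjusted p = 0.426). The paper lists *ELF7* among its putative extended mRNAs in *nerd-1*, from a screen that left out genes with changed expression. *VIP6* and *ELF7* lost the call without any one of the WT or *nerd-1* libraries (limma adjusted p from 0.0555 to 0.147), and *VIP5* without WT replicate 2 or either *nerd-1* library (limma adjusted p from 0.0628 to 0.0668). *FLX*, a component of the FRIGIDA complex, fell by 0.53 (limma adjusted p = 0.0087), and not past the threshold without WT replicate 2 (limma adjusted p = 0.0524) or *nerd-1* replicate 1 (limma adjusted p = 0.0619).

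Of the 9 genes of the autonomous pathway, which lowers *FLC*, 1 rose and 2 fell in *nerd-1*, below the 36.3% lower over all features, and 0 rose and 6 fell in *nerd-1*+T, above the 39.8% lower over all. The 3 calls in *nerd-1* became 7 with scaling to the FPKM sum, and the 6 in *nerd-1*+T became 2 with median-ratio scaling and without WT replicate 1 or WT replicate 2. *FPA*, an RNA-binding protein that acts in 3′-end choice, measured 16.4 and 16.8 FPKM in WT, 22.7 and 22.6 in *nerd-1*, against 14.3 and 14.0 in *nerd-1*+T. It had the same order over the genotypes as *FLC*, although it is a repressor of *FLC*. It rose by 0.43 in *nerd-1* (limma adjusted p = 0.0018), and the log2 difference between *nerd-1* and *nerd-1*+T was 0.64 (limma adjusted p = 0.0012). The place of *nerd-1*+T below WT depended on scaling. With median-ratio scaling the change of *FPA* in *nerd-1*+T against WT was -0.035 (limma adjusted p = 0.577). In the paper, the RNA of *FPA* served as the control on a gel blot of these genotypes. *LD*, a homeodomain protein, fell in *nerd-1* by 0.59 (limma adjusted p = 0.0049), and *FY*, a 3′-end processing factor, fell by 0.38 (limma adjusted p = 0.0046). *FVE*, a chromatin protein, was 0.30 higher in *nerd-1* than in *nerd-1*+T on the log2 scale (limma adjusted p = 0.0099), a call lost without *nerd-1* replicate 1 or replicate 2 (limma adjusted p = 0.0861 and 0.0723) and with scaling to the FPKM sum.

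Of 12 Polycomb and vernalization genes 11 were tested, and 3 rose and 3 fell in *nerd-1*, near the 19.4% higher and 36.3% lower over all features. Without any one of the WT or *nerd-1* libraries 2 calls were made in place of 6. *VRN2*, a Polycomb subunit needed to keep *FLC* silent after cold, fell by 0.48 (limma adjusted p = 0.0034). *VEL1*, a relative of the cold-induced *VIN3*, rose by 0.46 (limma adjusted p = 0.0021). *VRN1*, a DNA-binding protein of the same pathway, fell by 0.41 (limma adjusted p = 0.016), and lost the call without any one of the WT or *nerd-1* libraries (limma adjusted p from 0.0664 to 0.0838). *VIN3* itself stayed under the filter and was not tested.

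The 9 genes of the photoperiod pathway, which sets *FT* by day length, split into 3 that rose and 5 that fell in *nerd-1*, and into 3 that rose and 6 that fell in *nerd-1*+T, where 55.7% and 53.1% of all features passed in either direction. The 8 calls in *nerd-1* became 5 with median-ratio scaling and 3 or 4 without a WT or a *nerd-1* library. *CDF5* and *CDF2* encode DOF factors that repress *CO* and *FT*. *CDF5* measured 0.929 and 0.959 FPKM in WT, 3.42 and 3.54 in *nerd-1*, against 4.20 and 4.19 in *nerd-1*+T. It was above WT in both genotypes, by 1.20 (limma adjusted p = 0.00033) and 1.42 (limma adjusted p = 0.00013), and it passed the filter only through these libraries. *CDF2* measured 14.4 and 14.7 FPKM in WT, 26.6 and 27.1 in *nerd-1*, against 22.4 and 22.0 in *nerd-1*+T, a rise of 0.84 (limma adjusted p = 0.00029) and 0.58 (limma adjusted p = 0.00055). The other *CDF* genes of the list did not follow them. *CDF1* measured 25.8 and 26.4 FPKM in WT, 29.9 and 31.3 in *nerd-1*, against 22.1 and 22.0 in *nerd-1*+T, with changes of 0.22 (limma adjusted p = 0.0128) and -0.24 (limma adjusted p = 0.0105). With scaling to the FPKM sum the first was 0.075 (limma adjusted p = 0.197). With median-ratio scaling the second was -0.052 (limma adjusted p = 0.416). The first was lost without any one of the WT or *nerd-1* libraries (limma adjusted p from 0.0549 to 0.0989) and the second without WT replicate 1 or WT replicate 2 (limma adjusted p = 0.0577 and 0.0772). *CDF3*, named after its values were seen, fell in both genotypes, by 0.37 (limma adjusted p = 0.0121) and 0.50 (limma adjusted p = 0.00467), the first call being lost without WT replicate 1, WT replicate 2 or *nerd-1* replicate 1 (limma adjusted p from 0.0604 to 0.0815).

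*CO*, the activator of *FT*, measured 3.09 and 3.13 FPKM in WT, 2.42 and 2.49 in *nerd-1*, against 4.09 and 4.26 in *nerd-1*+T. Its order over the genotypes was that of *SOC1*, and *nerd-1* was 0.58 below *nerd-1*+T on the log2 scale (log2 difference -0.58, limma adjusted p = 0.0033). Its change of -0.25 against WT in *nerd-1* (limma adjusted p = 0.022) was lost when any WT or *nerd-1* library was left out. With median-ratio scaling this change was -0.16 (limma adjusted p = 0.0845).

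Of the 7 AP2-type repressors of *FT*, 3 rose and 2 fell in *nerd-1*, 2 rose and 5 fell in *nerd-1*+T, and 6 were higher in *nerd-1* than in *nerd-1*+T with none lower (median log2 difference 0.57, against 0.06 over all features). Of all features 19.4% were higher and 36.3% lower in the first of these comparisons, 13.2% and 39.8% in the second, and 24% and 14% in the third. With 1 library left out the calls numbered 3 to 5, 3 to 7 and 5 to 7. *TEM2* measured 85.2 and 83.3 FPKM in WT, 248 and 245 in *nerd-1*, against 111 and 95.6 in *nerd-1*+T, a rise of 1.54 in *nerd-1* (limma adjusted p = 0.00027). *TEM1*, its close relative, measured 62.0 and 62.6 FPKM in WT, 137 and 130 in *nerd-1*, against 81.0 and 74.3 in *nerd-1*+T, a rise of 1.09 (limma adjusted p = 0.00033). Both were high in *nerd-1* and only slightly above WT in *nerd-1*+T.

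*SNZ*, a relative of APETALA2, had another pattern, at 28.2 and 33.2 FPKM in WT, 25.8 and 27.7 in *nerd-1*, against 11.9 and 10.8 in *nerd-1*+T. It was lowest in *nerd-1*+T, where it fell by 1.36 (limma adjusted p = 0.0004). *TOE1*, another such repressor, measured 51.1 and 52.7 FPKM in WT, 42.0 and 43.6 in *nerd-1*, against 27.1 and 30.0 in *nerd-1*+T, and fell in *nerd-1*+T by 0.84 (limma adjusted p = 0.0005).

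Of the 14 partners and targets of the integrators, 6 were tested. In *nerd-1*, 0 rose and 5 fell (median -0.44), in *nerd-1*+T 0 rose and 2 fell (median -0.08), and 3 were lower in *nerd-1* than in *nerd-1*+T with none higher. Of all features 36.3%, 39.8% and 14% were lower in these comparisons, so that 2 of 6 in *nerd-1*+T is near the background. With 1 library left out the calls numbered 2 to 5, 1 to 3 and 1 to 5. *AGL24*, a MADS-box activator that works with SOC1, measured 12.2 and 12.8 FPKM in WT, 3.46 and 3.70 in *nerd-1*, against 6.99 and 7.05 in *nerd-1*+T. It fell in both, by 1.56 (limma adjusted p = 0.00015) and 0.75 (limma adjusted p = 0.00057), with *nerd-1* the lowest. *AGL42*, a relative of *SOC1* that also promotes flowering, measured 8.92 and 9.46 FPKM in WT, 3.26 and 3.05 in *nerd-1*, against 5.79 and 7.44 in *nerd-1*+T, and fell in *nerd-1* by 1.29 (limma adjusted p = 0.0011).

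*SPL4*, a miR156-regulated activator of flowering, fell in *nerd-1* by 0.49 (limma adjusted p = 0.011), and lost the call without any one of the WT or *nerd-1* libraries (limma adjusted p from 0.0574 to 0.0686). *FD*, the partner of FT, changed by -0.39 (limma adjusted p = 0.031). This call was likewise lost without WT replicate 1, WT replicate 2 or *nerd-1* replicate 1, and with median-ratio scaling (-0.29, limma adjusted p = 0.074). *AP1*, *LFY*, *CAL*, *FUL*, *TSF*, *TFL1*, *AGL71* and *AGL72*, which include the meristem identity genes, did not reach the filter and were not tested.

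Finally, each member was compared with 19575 tested genes by the root-mean-square distance between their log2(FPKM + 1) deviations over the 6 libraries, as a description with no test, since all these values come from the same libraries. AT5G52050 was nearest to *FLC*, at a distance of 0.0481 log2 units, with 8.97 and 8.61 FPKM in WT, 14.5 and 14.4 in *nerd-1*, against 4.81 and 5.23 in *nerd-1*+T. The next was AT3G24460, at 0.0595. *CYP707A4*, an abscisic acid-degrading enzyme, was nearest to *SVP* (0.0231), *CHUP1*, a chloroplast positioning protein, to *SOC1* (0.0256), and AT1G51440 to *FT* (0.0348). *UMAMIT31* was nearest to *FLM* (0.0152), AT5G48790 to *MAF2* (0.0126), *RAB28* to *MAF3* (0.0410), AT5G60142 to *MAF4* (0.0494) and *ABC4* to *MAF5* (0.0220). *CYP707A4* and AT5G60142 passed the filter only through their WT libraries, so that both had to be higher in WT. No other member was among the 2 nearest genes of any member.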

How the data were processed

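RNA-seq libraries of WT, *nerd-1* and *nerd-1*+T seedlings (2 each) were grouped by their labels. According to the Methods and the submitters' processing notes, reads of organelle and ribosomal RNA genes were removed with Bowtie2 2.3.4, the rest mapped to TAIR10 with TopHat2 2.0.7 (default parameters) and quantified with Cufflinks 2.2.1. The deposited values are FPKM, which the authors estimated library by library for genes as well as transposable elements. Each library held 64625 entries, of which 4 without identifier were left out, and summed to 847355 to 966119 FPKM. FPKM keep no read counts and the sources differ on read numbers, so the depth is unknown and precision was judged from replicates. Cufflinks shares reads between similar or overlapping features, and an exact 0 can be a failed estimate.

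Log2(FPKM + 1) was fitted with limma 3.58.1 in R 4.3.3, with all 6 libraries in one model, a mean-variance trend and no block, for the 20249 features that reached 1 FPKM in 2 or more libraries. P-values were Benjamini-Hochberg adjusted over all of them, with a threshold of 0.05. Cuffdiff, used by the authors, needs mapped reads and was not rerun. Code was tested on simulated data. Pandas 2.3.3, numpy 2.4.6 and matplotlib 3.10.9 in Python 3.11.15 were used for the rest.

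Genes named are the 9 members, *NERD*, the nearest annotated gene on each side of a member, up to 4 genes per list by size of change among those past the threshold in *nerd-1* against WT or against *nerd-1*+T, and the 2 nearest genes in pattern, of which not all are printed. The members and lists were chosen with earlier results of these data known. *MT1A*, *VIP5*, *VIP6*, *ELF7* and *CDF3* were named after their values were seen. Locations and sequences are those of TAIR10.1, which held 32780 of the 33242 genes in the files, and 69 of 69 TAIR10 locations compared were the same. Alternatives were a pseudocount of 0.1, other filters and scalings, the replicate number as a block, only the genotypes compared, no trend, and each library left out.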

Additional observations from a re-analysis of the deposited data

How the results depend on the processing

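Over the 14 alternative settings, 342 of the 372 recomputed member changes kept their direction and side of the threshold, 16 passed in addition, 7 were lost and 7 reversed, none of the reversed ones being past the threshold. *FT* and *MAF5* could not be tested with at least 1 FPKM in every library. Reversed were *FLM* in *nerd-1* against WT with FPKM-sum scaling (-0.080), and, in *nerd-1* against *nerd-1*+T, *MAF2* with FPKM-sum scaling (-0.021), *MAF3* without *nerd-1* replicate 1 (0.0045; from -0.15 to 0.0045 with any library left out), and *MAF4* with FPKM-sum scaling (-0.10), with median-ratio scaling (-0.026), without *nerd-1* replicate 1 (-0.10) and without *nerd-1*+T replicate 1 (-0.09; from -0.10 to 0.16 with any library left out). The cause was not tested. For the neighbours, list and marker genes named and *NERD*, 1070 of the 1314 recomputed calls were kept, 244 were lost and none reversed, and 65 of 252 list counts moved by more than 1.5 times.

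Of all features, 11275, 10744 and 7684 passed in *nerd-1* against WT, *nerd-1*+T against WT and *nerd-1* against *nerd-1*+T. With each library left out in turn the counts ranged from 5710 to 13605, from 5905 to 12658 and from 1724 to 11227. The lowest count of each comparison came from a fit that left WT or *nerd-1* with 1 library. The highest came from a fit that left *nerd-1*+T with 1 library. A genotype with 1 library is assumed to vary like the others. Why the counts fell in some of these fits and rose in others was not tested. Over the same fits, the members past the threshold ranged from 5 to 6, from 5 to 8 and from 3 to 5. With only the genotypes compared, the third count was 4956.

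The labels number the replicates 1 and 2 in every genotype. Over the tested features, deviations of same-numbered libraries were nearly uncorrelated (correlations of 0.05, 0.09 and -0.0007). Such correlations cannot show whether same-numbered libraries were grown, harvested or prepared together, and the labels do not say. In *MAF2* and *MAF3*, replicate 2 was above replicate 1 in every genotype. With the replicate block the counts were 10713, 10187 and 6763. The block added the calls of *MAF2* and *MAF3* in *nerd-1* against WT (adjusted p = 0.039 and 0.037), of *MAF3* in *nerd-1*+T against WT (0.0177) and of *SVP* in *nerd-1* against *nerd-1*+T (0.0355).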
